A study of Mus musculus with 23 samples.

Results

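The transcripts of 9 genes of the complement system and of the serpin family were followed in bone marrow-derived macrophages (BMDM) that lacked the kinase MK2, or both MK2 and its relative MK3. The genes were taken by name from a list: C3, Cfb, C1qa, C1qb, C1qc, C1ra, Cfp, Serping1 and Serpina3f. A gene was found through the array probes whose transcript accession maps to it, and all 9 of 9 were found among the 26512 genes measured. C3, C1ra, Serping1 and Serpina3f had 2 probes each, and the other 5 genes had 1.

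Marrow of the femur of male C57BL/6 mice had been grown into BMDM over 9 days in the presence of M-CSF (10 ng/ml). The cells then received either medium alone or LPS at 100 ng/ml, and were taken after 120 min. The mice were wild-type (wt, 12 to 13 weeks old), MK2-/- (10 to 13 weeks) or MK2/3-/- (11 to 14 weeks), with the deletion carried in all cells of the mouse and not only in macrophages. RNA of each sample was hybridized with a single dye to an Agilent array of its own. Of the 6 groups, 5 had 4 arrays and the medium group of MK2-/- BMDM had 3, which makes 23 arrays. Medium and LPS arrays of a genotype came from the same numbered cultures 1 to 4, and the MK2-/- medium arrays were taken as cultures 1, 2 and 4. The last of these was assigned from the letter of the sample in the labels and the age of the mouse, and within-culture values of MK2-/- culture 4 rest on it. Values of a group are given in this order. They are log2 signals after quantile normalization, so that a step of 1 is a doubling, and levels of different probes cannot be set against each other.

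Complement is a chain of plasma proteins. It is started by C1q with its protease C1r on antibodies or dying cells, by lectins, or by the alternative pathway, all of which cleave C3 so that a fragment of it coats the target. Macrophages are a main source of C1q and make C3, factor B and properdin locally, whereas the liver supplies most of the plasma proteins. Serpins are inhibitors that trap proteases, and the C1 inhibitor, encoded by Serping1, is the serpin that stops C1r and C1s.

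All 7 measured macrophage markers (Adgre1, Csf1r, Itgam, Cd14, Mertk, Lyz2 and Mrc1) were well above background on each of the 23 arrays. None of the 6 hepatocyte markers was so on all arrays, and their summed log2 signal was between 4.99 and 6.80. The probe of Mapkapk2, which encodes MK2, was lower after LPS than in wt BMDM, with log2 differences of -2.81 in MK2-/- and -3.01 in MK2/3-/- cells (limma, adjusted p = 2.45e-05 and 2.65e-06), and that of Mapkapk3, which encodes MK3, by -3.30 in MK2/3-/- BMDM (adjusted p = 1.17e-09). Of the non-control spots, 48.4 to 61.5% were well above background on 22 arrays and 69.4% on the array of MK2/3-/- BMDM in medium, culture 2. On that array and on the one of MK2-/- BMDM after LPS, culture 1, the scanner software held no fit of the gradient. All arrays of a genotype shared a slide and a scan, so that genotype and slide cannot be told apart. This does not touch LPS against medium within a genotype. In cells in bulk, more expressing cells and more RNA per cell cannot be told apart.

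LPS raised Serpina3f in all 3 genotypes, C3 in wt and MK2/3-/- BMDM and C1ra in MK2/3-/- BMDM, at an adjusted p under 0.05 (limma, Benjamini-Hochberg over all genes). Serpina3f was the member with the largest differences, whereas the 3 chains of C1q and properdin had log2 differences between -0.35 and 0.18 in all genotypes. Of the 9 genes, 2 passed in wt BMDM, compared with 16.9% of all genes in the same test. In MK2-/- BMDM 1 of 9 passed (18.4% of all genes), and in MK2/3-/- BMDM 3 of 9 (24.7% of all genes). All these calls were increases. For C3, C1ra, Serping1 and Serpina3f the probe most induced in wt BMDM on these arrays was used, which leans their wt differences upward. The shares of members, 22.2%, 11.1% and 33.3%, lie around those of all genes and are no result about the group. Their median log2 differences were 0.58, 0.50 and 1.13, and those of all genes 0.01, -0.01 and -0.02.

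**Figure D1:**
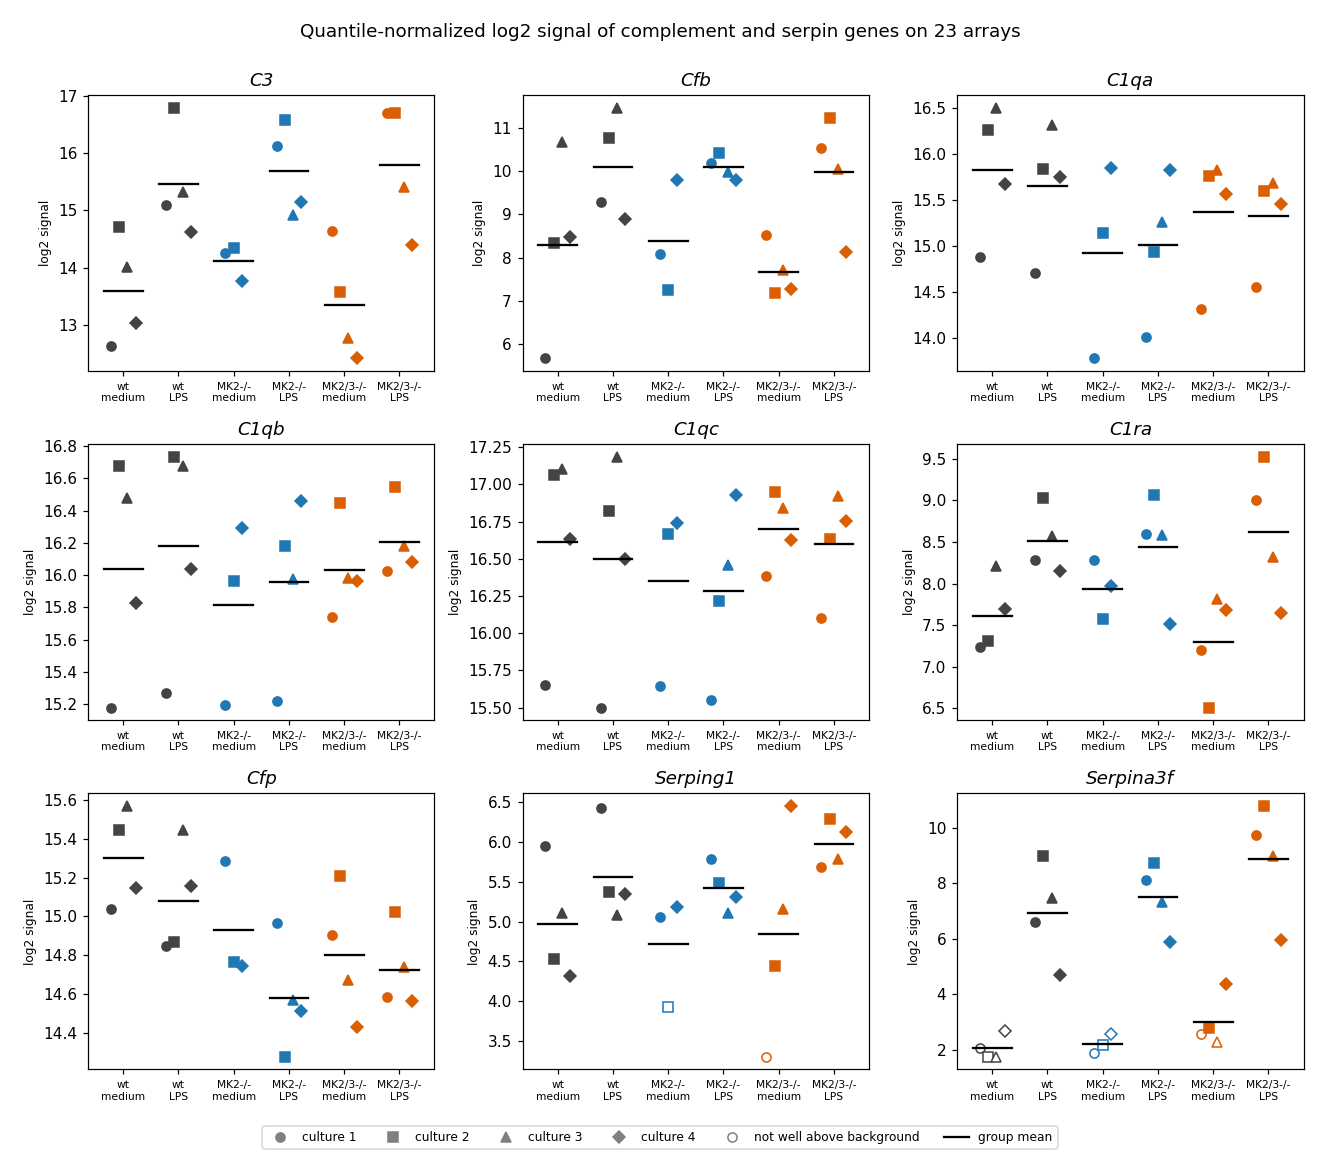
Log2 signal of the 9 genes on each of the 23 arrays, by genotype and treatment, with the shape of a point giving the culture, open points a signal not well above background and bars the group mean. Serpina3f in LPS-treated BMDM lies above all medium arrays of its genotype, and the C1q genes are lowest in culture 1 of each group.

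C3 encodes the protein on which all complement pathways meet. The gene lies on chromosome 17 from 57203967 to 57228136 (minus strand, GRCm38.p6), and the array probes carry its RefSeq accession NM_009778. In wt BMDM the log2 signal was 12.63, 14.70, 14.01 and 13.03 in medium and 15.09, 16.80, 15.32 and 14.63 after LPS. The MK2-/- cells had 14.26, 14.34 and 13.77 in medium and 16.13, 16.59, 14.92 and 15.14 after LPS. The MK2/3-/- cells had 14.64, 13.57, 12.77 and 12.41 in medium and 16.70, 16.71, 15.41 and 14.39 after LPS. The groups of MK2-/- BMDM did not overlap. In wt and in MK2/3-/- BMDM, 3 of 4 LPS arrays were above all medium arrays, and the remaining LPS array, culture 4 in both, was below the highest medium array but above the medium array of its own culture.

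The mean C3 signal was 1.87 higher after LPS in wt BMDM on the log2 scale (SE 0.62, 3.65-fold, limma adjusted p = 0.0431). The difference was 2.45 in MK2/3-/- BMDM (SE 0.62, 5.46-fold, adjusted p = 0.00554). In MK2-/- BMDM it was 1.57 and did not pass (SE 0.67, 95% interval 0.18 to 2.96, adjusted p = 0.118), but it passed with the culture as a replicate block (1.63, adjusted p = 0.0356). Within cultures C3 was higher after LPS in 11 of 11, by 1.31 to 3.13. The two-sided exact permutation test gave p = 0.0571 in each genotype, where 0.0286 is the smallest p it can give for 4 arrays against 4 or 3. The call in wt BMDM was close to the threshold: it was lost without wt LPS replicate 1, 2 or 3, without wt medium replicate 1, 3 or 4, without MK2-/- medium replicate 1, 2 or 3 and without MK2/3-/- medium replicate 2, with adjusted p between 0.0504 and 0.167. It was also lost with the mean over all probes, with only the groups compared in the fit and in the methods' t-test (adjusted p = 0.0596, 0.0890 and 0.139), and the call of C3 in MK2/3-/- BMDM was lost in the methods' t-test (adjusted p = 0.0771). The second probe of C3 gave a difference of 1.59 in wt and of 2.34 in MK2/3-/- BMDM, and correlated with the first with r = 0.99 across the 23 arrays.

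The 250 bases before the annotated start of C3 (RefSeq, chr17:57228137-57228386, minus strand, GRCm38.p6) are shown because this gene rose after LPS, and the same window is given for C1ra and Serpina3f. RefSeq entries were found for 6 of the 9 genes: C3, C1qb, C1qc, C1ra, Cfp and Serpina3f. Capitals mark matches on either strand to 4 short motifs known from promoters of inflammatory genes: a loose NF-kB pattern, GGGNNNNNCC (in 45.98% of 32536 promoter windows of the same length), the STAT pattern TTCNNNGAA (7.04%), the C/EBP pattern TTGCNNAA (9.57%) and the interferon response pattern GAAANNGAAA (2.98%), where N is any base. Matches that overlap form a single run of capitals.
C3: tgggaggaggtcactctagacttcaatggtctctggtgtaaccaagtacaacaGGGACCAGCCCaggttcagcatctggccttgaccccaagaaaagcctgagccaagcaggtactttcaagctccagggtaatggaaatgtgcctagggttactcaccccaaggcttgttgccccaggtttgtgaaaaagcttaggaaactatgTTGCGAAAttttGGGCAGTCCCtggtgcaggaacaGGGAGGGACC
The window of C3 held 4 matches to the NF-kB pattern, 2 of them overlapping, and 1 to the C/EBP pattern that ended 38 bases before the start.

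Cfb encodes factor B, which binds to deposited C3 fragments and provides the protease of the alternative pathway (chromosome 17, 34856374 to 34862514, NM_008198). Its log2 signal in wt BMDM was 5.68, 8.33, 10.67 and 8.49 in medium and 9.30, 10.76, 11.47 and 8.89 after LPS. Values of MK2-/- BMDM were 8.10, 7.25 and 9.79 in medium and 10.19, 10.42, 9.99 and 9.79 after LPS. Values of MK2/3-/- BMDM were 8.52, 7.18, 7.73 and 7.28 in medium and 10.54, 11.23, 10.06 and 8.14 after LPS. In medium its range between cultures on the log2 scale was 4.99 in wt but only 1.35 in MK2/3-/- BMDM, and medium and LPS arrays overlapped in each genotype.

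None of the mean LPS differences of Cfb passed. They were 1.82 in wt (SE 0.85, adjusted p = 0.176), 1.72 in MK2-/- (SE 0.92, adjusted p = 0.232) and 2.32 in MK2/3-/- cells (SE 0.85, adjusted p = 0.0530). With the culture as a replicate block the difference in MK2/3-/- BMDM passed (adjusted p = 0.0200). It also passed with normexp background correction, without genes not well above background in any whole group, with only the groups compared in the fit, with a trend and robust variance and with the number of the culture as a fixed block across genotypes (adjusted p between 0.0316 and 0.0490). The same held without wt LPS replicate 3, wt medium replicate 1 or 3, MK2-/- medium replicate 3, MK2/3-/- LPS replicate 4 or MK2/3-/- medium replicate 1 (adjusted p between 0.0154 and 0.0492). In wt BMDM the difference was 2.61 without wt medium replicate 3, and passed (adjusted p = 0.0353). Within cultures Cfb was higher after LPS in 10 of 11, by up to 4.05. In culture 4 of MK2-/- BMDM the difference was -0.01.

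Cfp encodes properdin, which stabilizes the convertase of the alternative pathway (chromosome X, 20925454 to 20931555, NM_008823). The log2 signal of wt BMDM was 15.30 ± 0.25 in medium and 15.08 ± 0.28 after LPS (SD, n = 4 each). The MK2-/- cells had 14.93 ± 0.31 (SD, n = 3) in medium and 14.58 ± 0.29 (SD, n = 4) after LPS, and the MK2/3-/- cells 14.80 ± 0.33 and 14.73 ± 0.21 (SD, n = 4 each). The arrays of medium and LPS overlapped in each genotype, and the LPS differences were -0.22, -0.35 and -0.08 with adjusted p of 0.563, 0.316 and 0.848. In contrast to C3, Cfp was lower after LPS in 8 of 11 cultures.

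C1q is built of 3 chains that are encoded side by side on chromosome 4, by C1qb (136880126 to 136886200), C1qc (136889801 to 136892936) and C1qa (136895916 to 136898844). C1qa was at 14.88, 16.26, 16.51 and 15.67 in wt BMDM in medium and at 14.71, 15.84, 16.31 and 15.75 after LPS. Signals of MK2-/- BMDM were 13.77, 15.14 and 15.84 in medium and 14.00, 14.93, 15.26 and 15.83 after LPS. Signals of MK2/3-/- BMDM were 14.32, 15.76, 15.83 and 15.56 in medium and 14.55, 15.60, 15.68 and 15.46 after LPS. Medium and LPS arrays of C1qa overlapped in each genotype, and culture 1 was the lowest in all 6 groups.

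The same order held for the other chains: C1qb and C1qc were also lowest in culture 1 in 6 of 6 groups. The deviation of culture 1 from its group mean was -1.14 to -0.77 for C1qa and -0.91 to -0.18 for C1qb on the log2 scale, and on average -0.70 for C1qc. After removal of group means the 3 chains correlated over the 23 arrays with r between 0.86 and 0.93, which is a description, since the arrays share cultures and the C1q chains are encoded at a single locus. Medium and LPS arrays of a culture count here as separate arrays. Same-numbered arrays of different genotypes correlated over the genes detected on all arrays with a median r of 0.27, compared with -0.10 for other numbers, and what they share beyond the number was not tested.

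**Figure D2:**
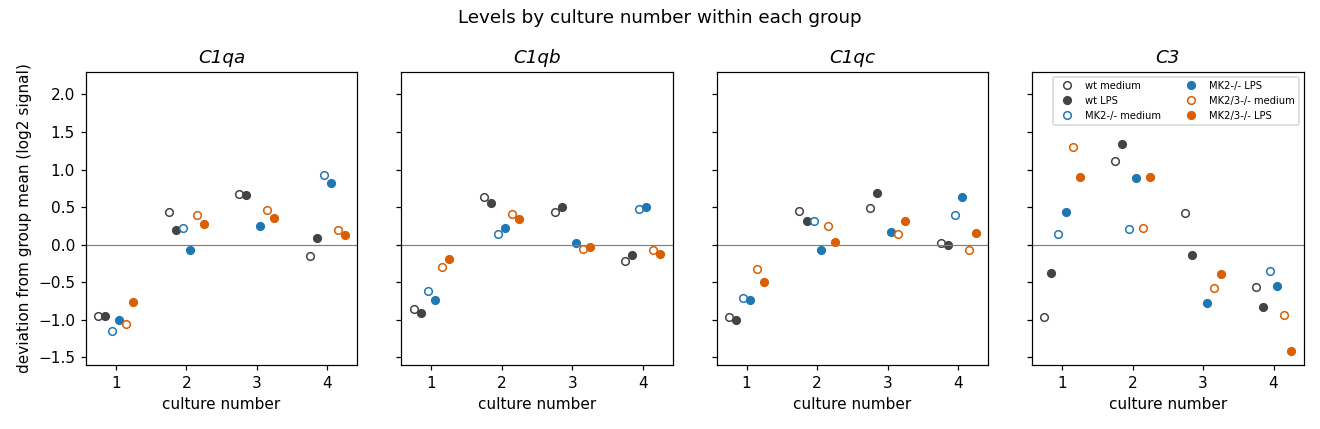
Deviation of each array from the mean of its group (log2 signal) against the number of its culture, for C1qa, C1qb, C1qc and C3, with colours for genotypes, filled points for LPS and open points for medium. In the C1q genes all 6 points of culture 1 are below 0, whereas those of C3 in culture 1 lie on both sides of 0 (-0.97 to 1.29) and those of culture 4 are all below it.

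LPS differences of the C1q genes were small compared with the differences between cultures. They were -0.18, 0.09 and -0.04 for C1qa, 0.14, 0.14 and 0.18 for C1qb and -0.11, -0.06 and -0.10 for C1qc in wt, MK2-/- and MK2/3-/- BMDM, and none passed. The 95% intervals reached from -1.22 to 1.22 for C1qa, from -0.67 to 0.96 for C1qb and from -0.92 to 0.79 for C1qc. Within cultures C1qb was higher after LPS in 11 of 11, but by only 0.03 to 0.29, while C1qa was lower in 8 of 11 and C1qc in 7 of 11.

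C1ra encodes the protease C1r, which is activated when C1q binds and then cleaves C1s (chromosome 6, 124512621 to 124523440, plus strand, NM_023143). The study had selected C1ra from array data of these cells at this and a longer LPS treatment. Which treatment time led to the choice is not stated, so that its response is not taken as independent evidence. Its log2 signal in wt BMDM was 7.24, 7.30, 8.22 and 7.70 in medium and 8.29, 9.03, 8.57 and 8.16 after LPS. In MK2-/- BMDM it was 8.28, 7.57 and 7.97 in medium and 8.60, 9.07, 8.58 and 7.52 after LPS. In MK2/3-/- BMDM it was 7.19, 6.51, 7.81 and 7.69 in medium and 9.00, 9.53, 8.33 and 7.65 after LPS. In each genotype 3 LPS arrays were above all medium arrays and the array of culture 4 was not.

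The LPS difference of C1ra passed in MK2/3-/- BMDM (1.33, SE 0.39, 2.51-fold, adjusted p = 0.0170, exact permutation p = 0.0857). It did not pass in wt (0.90, SE 0.39, adjusted p = 0.144) or MK2-/- BMDM (0.50, SE 0.43, adjusted p = 0.501). The difference of the LPS response between MK2/3-/- and MK2-/- BMDM was 0.82 for C1ra, and did not pass either (95% interval -0.39 to 2.04). The call was lost without MK2/3-/- LPS replicate 1 (1.20, adjusted p = 0.0547), without MK2/3-/- LPS replicate 2 (1.03, adjusted p = 0.0757) and without MK2/3-/- medium replicate 2, the array with the high share of spots above background (1.06, adjusted p = 0.0693). It was also lost with only the groups compared in the fit (adjusted p = 0.0900) and in the methods' t-test (adjusted p = 0.136). The second probe of C1ra gave similar differences of 0.90, 0.34 and 1.35 in wt, MK2-/- and MK2/3-/- BMDM. Within cultures C1ra was higher after LPS in 9 of 11, by up to 3.02 in culture 2 of MK2/3-/- BMDM.

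The window before the start of C1ra (RefSeq, chr6:124512371-124512620, plus strand, GRCm38.p6) held none of the 4 patterns.
C1ra: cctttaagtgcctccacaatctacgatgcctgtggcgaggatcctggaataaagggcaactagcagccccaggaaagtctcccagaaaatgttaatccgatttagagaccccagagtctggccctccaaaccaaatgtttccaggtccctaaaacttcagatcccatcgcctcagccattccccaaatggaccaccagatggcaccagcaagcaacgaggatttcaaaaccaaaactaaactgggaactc
It is printed in lower case throughout for that reason.

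Serping1 encodes the C1 inhibitor, which inactivates C1r and C1s (chromosome 2, 84765360 to 84775444, NM_009776). In wt BMDM its log2 signal was 5.94, 4.53, 5.11 and 4.32 in medium and 6.42, 5.37, 5.09 and 5.35 after LPS. In MK2-/- BMDM it was 5.05, 3.93 and 5.18 in medium and 5.78, 5.48, 5.11 and 5.30 after LPS, and in MK2/3-/- BMDM 3.30, 4.44, 5.16 and 6.45 in medium and 5.68, 6.28, 5.79 and 6.12 after LPS. On 21 of 23 arrays this probe exceeded the background clearly, the exceptions being the lowest arrays in medium of MK2-/- and MK2/3-/- BMDM, and the second probe did so on only 9 of 23.

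Serping1 was higher after LPS in 9 of 11 cultures. The mean differences of 0.58, 0.70 and 1.13 in wt, MK2-/- and MK2/3-/- BMDM did not pass (adjusted p = 0.536, 0.452 and 0.114). Without MK2/3-/- medium replicate 4, the highest medium array, the difference in MK2/3-/- BMDM was 1.67 and passed (adjusted p = 0.0103). The second probe of Serping1 gave a difference of 0.11 in wt BMDM, where it was well above background on 2 of 4 arrays of each treatment, and in MK2-/- BMDM it was so on no array.

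Serpina3f is a member of the mouse family of antichymotrypsin-like serpins, which are encoded by a cluster of closely related genes on chromosome 12 (104214544 to 104221129, plus strand, NM_001168294). Whether its probes also bind transcripts of its relatives was not tested. Like C1ra, Serpina3f had been selected by the study from array data that also covered a longer LPS treatment. The paper reported the same RT-qPCR pattern for it as for C1ra. In wt BMDM its log2 signal was 2.08, 1.75, 1.76 and 2.67 in medium and 6.60, 9.00, 7.47 and 4.70 after LPS. For MK2-/- BMDM it was 1.90, 2.16 and 2.57 in medium and 8.11, 8.74, 7.35 and 5.88 after LPS. For MK2/3-/- BMDM it was 2.57, 2.79, 2.29 and 4.38 in medium and 9.76, 10.79, 8.99 and 5.97 after LPS. Every LPS array was above every medium array of its genotype, and after LPS culture 2 was the highest in each genotype.

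In medium, Serpina3f was not well above background on any array of wt and MK2-/- BMDM and was so on 2 of 4 arrays of MK2/3-/- BMDM, cultures 2 and 4. After LPS it was so on all arrays. LPS raised it in wt cells (limma, adjusted p = 0.000588) and in MK2-/- cells (adjusted p = 0.000512), tested on signals without any replacement. For a fold of group means, medium signals under the weakest detected signal of any probe on their array were replaced by that signal. The fold was then 10.9 in wt and 12.2 in MK2-/- cells. These folds are no strict lower limits, since the replacing signal is not the detection limit of this probe. Serpina3f was also raised in MK2/3-/- cells (limma, adjusted p = 5.78e-05), where 2 of 4 medium arrays had measured it. With the same replacement the fold of group means was 30.9 in these cells, which is no minimum for single cultures. The exact permutation p was 0.0286 in each genotype, the smallest it can give. With normexp background correction the log2 difference in wt BMDM was 1.58 and did not pass (adjusted p = 0.0736), while those of 1.86 in MK2-/- and 2.77 in MK2/3-/- BMDM passed (adjusted p = 0.0451 and 0.00125). The second probe of Serpina3f, not well above background on the medium arrays, correlated with the first with r = 0.98.

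Within cultures Serpina3f was higher after LPS in 11 of 11. The sizes of these increases are not measured exactly, since 9 of the 11 medium signals were not well above background. The 2 pairs with both signals measured, both of MK2/3-/- BMDM, were far apart. Culture 4 had 4.38 in medium and 5.97 after LPS, and culture 2 had 2.79 and 10.79. After LPS culture 4 was the lowest in each genotype. Culture 4 was also the lowest in C3 in 4 of the 6 groups.

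The window before the upstream start of Serpina3f, the first of 2 in RefSeq (chr12:104214294-104214543, plus strand, GRCm38.p6), held 5 matches.
Serpina3f: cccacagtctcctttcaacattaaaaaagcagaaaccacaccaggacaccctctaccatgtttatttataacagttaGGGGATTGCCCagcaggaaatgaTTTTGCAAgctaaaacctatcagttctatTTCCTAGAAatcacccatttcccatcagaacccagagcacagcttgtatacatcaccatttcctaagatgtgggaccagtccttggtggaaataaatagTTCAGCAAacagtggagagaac
It had 2 overlapping matches to the NF-kB pattern, 2 to the C/EBP pattern, which ended 143 and 15 bases before the start, and 1 to the STAT pattern, which ended 113 bases before it. Of the 6 genes with an entry, Serpina3f was the only one with a match to the STAT pattern in this window. C1qb and C1qc, which were not called after LPS, held 2 overlapping matches to the NF-kB pattern each, and Cfp, also not called, held 1. The window before the second start of Serpina3f held 1 match to the STAT pattern and 2 to the C/EBP pattern, but none to the NF-kB pattern. It overlaps the first window, and these matches are the same bases as there.

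**Figure D3:**
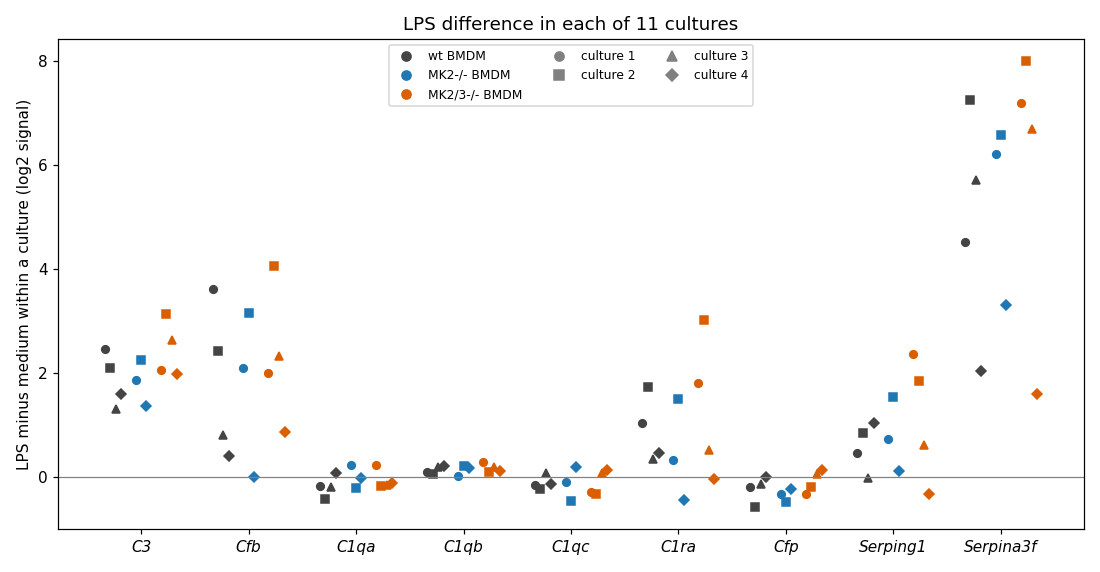
Log2 signal after LPS minus that in medium within each of the 11 cultures that have both arrays, for the 9 genes, with colours for genotypes and shapes for cultures. All points of C3, C1qb and Serpina3f are above 0, and the points of the C1q genes and Cfp lie between -0.58 and 0.29.

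None of the 9 genes differed between genotypes at an adjusted p under 0.05 in limma, neither after LPS nor in medium. After LPS, the share of all genes that passed was 0.0302% for MK2-/- against wt BMDM, 1.64% for MK2/3-/- against wt BMDM and 0.158% for the knockouts against each other. In medium these shares were 0.00754%, 0.0792% and 0.0453%. At an unadjusted p under 0.05 there was 1 member in each of 3 of these 6 comparisons. After LPS it was Cfp for MK2-/- and Serpina3f for MK2/3-/- against wt BMDM, and in medium it was Cfp for MK2/3-/- against wt BMDM. The methods' t-test gave 1 member for MK2-/- against wt BMDM and 1 for the knockouts against each other after LPS without adjustment and none in the other 4 comparisons, and after Benjamini-Hochberg none in all 6.

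Serpina3f had the largest of these differences. Mean log2 signals after LPS were 6.94 ± 1.79 for wt BMDM, 7.52 ± 1.23 for MK2-/- and 8.88 ± 2.07 for MK2/3-/- BMDM (SD, n = 4 each). MK2/3-/- BMDM were 1.93 above wt (SE 0.90, 95% interval 0.04 to 3.82, adjusted p = 0.354), with 2 of 4 arrays above all wt arrays, and 1.36 above MK2-/- BMDM (95% interval -0.53 to 3.25), with 3 of 4 arrays above all MK2-/- arrays. Between same-numbered cultures Serpina3f after LPS was higher in MK2/3-/- than in MK2-/- BMDM in 4 of 4, by 0.09 to 2.05, and higher than in wt BMDM in 4 of 4, by 1.27 to 3.16. With the number of the culture as a fixed block the adjusted p were 0.605 against MK2-/- and 0.255 against wt BMDM. MK2-/- and wt BMDM differed by 0.58 in Serpina3f (95% interval -1.31 to 2.46).

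For C3 after LPS, the differences from wt BMDM were 0.23 in MK2-/- (95% interval -1.06 to 1.52) and 0.34 in MK2/3-/- BMDM (95% interval -0.95 to 1.63). The missing call does not show a like level of C3 in the genotypes, since these intervals are wide. Cfp, the least variable member, was lower than in wt BMDM by a log2 difference of -0.50 in MK2-/- BMDM after LPS (95% interval -0.92 to -0.08, adjusted p = 0.628) and of -0.50 in MK2/3-/- BMDM in medium (95% interval -0.92 to -0.08, adjusted p = 0.994). C1qa was lower than in wt by -0.91 in MK2-/- BMDM in medium, with an interval of -2.04 to 0.22.

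**Figure D4:**
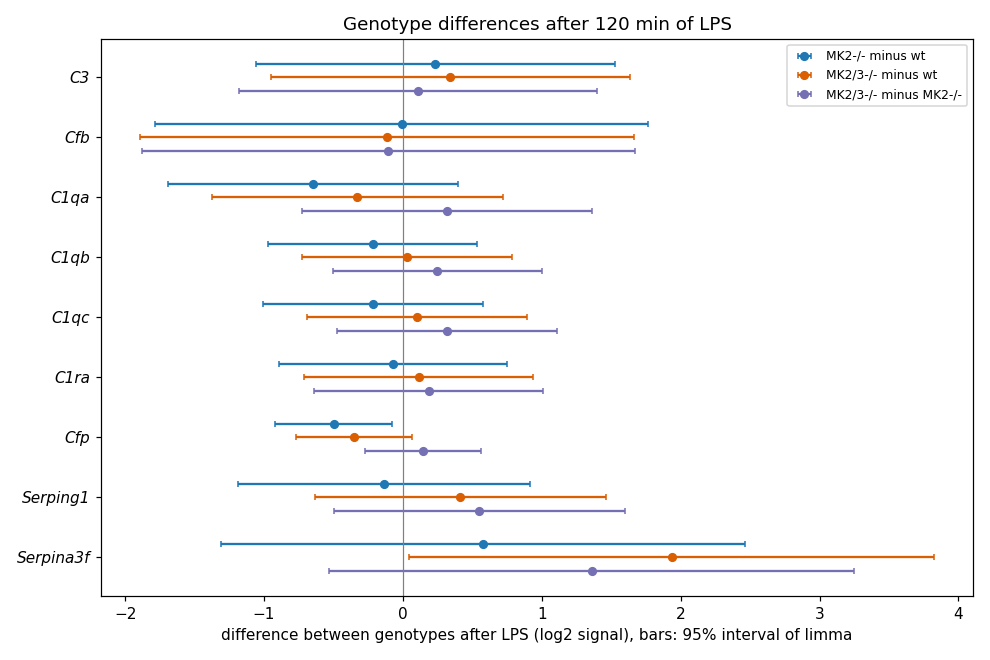
Differences between genotypes after 120 min of LPS (log2 signal) for the 9 genes, with points for the limma estimate and bars for its 95% interval. Of the 27 intervals, 2 leave out 0, those of Cfp for MK2-/- minus wt and of Serpina3f for MK2/3-/- minus wt, and neither passed the adjustment over all genes.

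The response to LPS itself was also compared between genotypes. No member passed this test (limma), and the shares of all genes were 0.00377% for MK2-/- against wt, 0.0113% for MK2/3-/- against wt and 0% for MK2/3-/- against MK2-/- BMDM. At an unadjusted p under 0.05 there was none among the members either. The response of C3 was 0.58 larger in MK2/3-/- than in wt BMDM on the log2 scale (95% interval -1.24 to 2.41). No size is given for Serpina3f, since its medium signals were mostly not well above background.

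The genes with the most similar pattern over the 23 arrays were sought among 15929 genes that were well above background on all arrays of a group. Serpina3f was followed most closely by Sav1, Stard7 and Socs7 (Pearson r = 0.98 each). For C3 these were Tlr1 (r = 0.96), Cst7 (0.96) and BC010546 (0.95), where Tlr1 encodes a receptor for bacterial lipoproteins. For Cfb they were the transcript XR_140500 (r = 0.92), Irf7 (0.91), a transcription factor of the interferon response, and Sycn (0.89).

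C1qb and C1qc were in each other's lists (r = 0.89). C1qc also had Stab1 (r = 0.89), a scavenger receptor, and C1qa (0.88), and C1qb had Itga9 and Pcsk1n (0.88 each). C1qa itself was closest to Vmn1r48 (r = 0.94), Olfr128 (0.93) and the transcript TC1675665 (0.92), the first 2 of which are named as chemosensory receptors. C1ra was closest to the transcript NM_001164329, Rab9 (r = 0.92 each) and Il18 (0.91), a cytokine gene. Serping1 was closest to Map7d3, Rem1 (r = 0.84 each) and Pdgfrb (0.83), a receptor of mesenchymal cells, and Cfp to Hmbox1 (r = 0.75), Npc1 (0.72) and Laptm5 (0.68). All these correlations come from arrays that share the treatment, cultures and slides, and describe these 23 arrays only.

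The wider complement system and the other serpins were measured by 106 further genes in 4 lists. In wt BMDM 9 of 106 passed after LPS (8.49%, compared with 16.9% of all genes), in MK2-/- BMDM 10 (9.43%, compared with 18.4%) and in MK2/3-/- BMDM 12 (11.3%, compared with 24.7%). Of the 106 genes, 52 were well above background on all arrays of at least 1 group.

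Genes of these lists with the largest differences were named by a rule, and C8g, C1rl, Cd46, C5ar2, Lrp1, Serpinb6c, Serpinb6a, Serpinb8 and Serpina3b were named after their values had been seen, to account for further calls. Among 23 other complement components, C8g, a chain of the membrane attack complex, was the 1 gene that rose in each genotype, and C1rl, a relative of C1r, the 1 that fell, in MK2/3-/- BMDM (-0.81, adjusted p = 0.0248). The median log2 difference of this list was 0.36, 0.31 and 0.17 in wt, MK2-/- and MK2/3-/- BMDM. Among 18 complement regulators, 1 rose in wt and MK2-/- (Cd55) and 2 in MK2/3-/- BMDM (Cd55 and Cd46), and none fell (medians -0.13, 0.13 and 0.22). Cd55, which encodes the decay-accelerating factor that takes C3 convertases apart on the cell surface, rose by 2.87 in wt, by 2.89 in MK2-/- and by 2.64 in MK2/3-/- BMDM (limma, adjusted p = 0.0337, 0.0455 and 0.0385). It was well above background on all LPS arrays but on only 1 of 4 medium arrays in wt BMDM.

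Among 14 complement receptors, 1 rose in each genotype, while 2 fell in wt (C5ar2 and Lrp1), 1 in MK2-/- (C5ar2) and none in MK2/3-/- BMDM (medians -0.28, -0.19 and -0.10). C5ar1, the receptor for the C5a fragment that attracts phagocytes, was the one that rose. Its log2 signal was 12.70 ± 0.58 in wt BMDM in medium and 14.28 ± 0.26 after LPS (SD, n = 4 each), 3.00-fold higher (adjusted p = 0.000172), and its LPS differences of 1.58 in MK2-/- and 1.89 in MK2/3-/- BMDM passed too (adjusted p = 0.000362 and 1.67e-05).

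Among 51 other serpins, 3 rose and 1 fell in wt, 4 rose and 2 fell in MK2-/- and 6 rose and 1 fell in MK2/3-/- BMDM (medians 0.06, 0.05 and 0.11). Serpinb2, Serpinc1 and Serpina3i rose in all genotypes and Serpinb6c fell in all, Serpinb6a fell in MK2-/- and Serpinb8 and Serpina3b rose in MK2/3-/- BMDM, and whether these responses differ between genotypes was not established by a call for any of them. Serpinb2, an inhibitor of plasminogen activators, rose by 4.67 in wt, by 6.00 in MK2-/- and by 6.34 in MK2/3-/- BMDM (adjusted p = 0.00649, 0.00146 and 0.000306). Its signal in medium was between 4.93 and 11.19 in wt BMDM, and it was well above background on 4 of 4 wt but only 1 of 3 MK2-/- and 1 of 4 MK2/3-/- medium arrays.

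Serpinc1, which encodes antithrombin, rose from 3.85 ± 0.63 to 5.60 ± 0.12 in wt BMDM (SD, n = 4 each, adjusted p = 0.00127), and by 2.15 and 2.77 in MK2-/- and MK2/3-/- BMDM (adjusted p = 0.000360 and 6.61e-06). In medium, Serpinc1 was detected on 2 of 4 arrays in wt cells and on a single array in each knockout, so that these sizes are uncertain. Serpina3i, a relative of Serpina3f in the same family, rose after LPS in MK2/3-/- BMDM (limma, adjusted p = 0.00104), with no medium array well above background. With medium signals replaced as for Serpina3f the fold was 7.23, which is no strict lower limit either.

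A single gene of the 4 lists differed between genotypes. Serpinb6d, a serpin of the intracellular B clade, was at 10.06 ± 0.09 in LPS-treated wt cells, 10.12 ± 0.18 in MK2-/- cells and 9.09 ± 0.17 in MK2/3-/- cells (SD, n = 4 each). The MK2/3-/- level was lower than wt by -0.96 after LPS and by -1.07 in medium, and lower than MK2-/- by -1.02 and -1.18 (limma, adjusted p = 0.000623, 0.000235, 0.000449 and 0.000193). The groups did not overlap. After LPS both calls of Serpinb6d were made in 32 of 34 alternatives, and were lost in the methods' t-test and with only the groups compared in the fit. In medium both were lost in the methods' t-test, and the one against MK2-/- also with only the groups compared. The count of 1 gene depended on the setting. Between MK2/3-/- and wt BMDM after LPS it ran from 0 to 4, with 4 under 75th percentile scaling and with the number of the culture as a fixed block across genotypes. With this block, which was chosen after seeing the data, C5ar2 was higher after LPS in MK2/3-/- than in MK2-/- and wt BMDM (adjusted p = 0.0139 and 0.00815). Against wt BMDM it also passed with normexp background correction, the mean over all probes and only genes well above background in a whole group (adjusted p = 0.0381, 0.0426 and 0.0426). As for all genotype differences, slide and genotype cannot be told apart.

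Markers of other cells were read on the same arrays. Summed log2 signals of 5 dendritic cell markers were 6.73 to 9.84 on medium arrays and 10.31 to 11.41 on LPS arrays. Those of 6 fibroblast markers were 9.09 to 16.70 on medium arrays and 9.99 to 16.43 on LPS arrays, with the widest spread between cultures. In wt BMDM the fibroblast sum was 11.99 to 16.70, in MK2-/- BMDM 10.31 to 15.08 and in MK2/3-/- BMDM 9.09 to 15.85. Of the 7 neutrophil markers, 5 were well above background on all arrays, with sums of 11.55 to 14.19. Those of 5 T cell markers were 9.88 to 11.24 on medium arrays and 10.34 to 13.50 on LPS arrays, while 2 of the 5 were well above background on no array. Of single markers, Lck, a kinase of T cells, was higher after LPS in wt, MK2-/- and MK2/3-/- BMDM by 2.53, 2.97 and 4.76 (adjusted p = 0.0238, 0.0131 and 7.70e-05), and Zbtb46, a dendritic cell marker, by 5.49, 5.40 and 5.77. Pdgfrb, a fibroblast marker, was higher by 3.23 in MK2/3-/- BMDM (adjusted p = 0.0237). Ccr7, a dendritic cell marker, was called only in wt BMDM (3.21 higher, limma, adjusted p = 0.0210). Pax5, a B cell marker, was called only in MK2-/- BMDM (1.15 higher, limma, adjusted p = 0.0279). The part of these cells in the levels of the 9 genes was not tested.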

How the data were processed

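Total RNA of 23 BMDM samples in 6 groups of genotype and treatment was measured on single-dye Agilent arrays. The spot intensity deposited by the authors comes from Feature Extraction 11.0.1.1 and is linear, background-subtracted and, except on 2 arrays, corrected for gradients. The log2 values deposited by the authors in a second table had been quantile normalized, and were an alternative here. Non-uniform and outlier spots were treated as missing and control spots dropped, signals were log2 transformed, replicate spots were averaged and arrays were quantile normalized. Accessions were named through RefSeq (GRCm38.p6), whose coordinates are given, and per the file headers the array design was annotated to another build. A gene with more than 1 probe was represented by the probe that LPS induced most in wt BMDM, chosen on these same arrays.

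All arrays entered a single fit of 6 groups (lmFit and eBayes of limma 3.58.1 in R 4.3.3), with p-values adjusted by Benjamini and Hochberg over 26512 genes at 0.05, two-sided. Exact permutation tests of single genes were run beside it. The steps were tested on simulated data. Figures were drawn with matplotlib 3.10.9. The members and gene lists were chosen with earlier results of these data known. Named are all 9 members, Mapkapk2 and Mapkapk3, from the wider lists in each comparison of a pair of groups the 4 genes with the largest difference among those called and well above background on all arrays of a group, and for each member the 3 genes with the highest correlation.

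Medium and LPS samples of a genotype shared numbered cultures. After removal of group means the 11 such pairs correlated with r between 0.36 and 0.77 (median 0.49) over 12734 genes detected on every array, compared with a median of -0.19 for other cultures, and the fit with a culture block is given where it changed a call. The labels do not name the animals, so that p-values measure the spread between these cultures. The number of arrays limits the precision, and no spot was saturated. Alternatives were the scaling, background correction, deposited values, a floor, the mean of probes, a filter on dim probes, the groups in the fit, the methods' t-test, blocks, the variance model and leaving out each array. The methods' t-test was run on log2 values and its calls were adjusted like those of limma. The paper took p under 0.05 in its t-test and names no adjustment. Transcripts without a name in the reference table keep their accession. A gene of the wider lists that met the rule is counted but not reported here.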

Additional observations from a re-analysis of the deposited data

How the results depend on the processing

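The number of members called for LPS against medium depended on the setting in each genotype, whereas in the 6 genotype comparisons and the 3 differences of the LPS response it was 0 in all alternatives that were run. In wt BMDM it was 2 and fell to 1 with normexp background correction, the mean over all probes, only the groups compared in the fit or the methods' t-test, and was 1 to 2 when single arrays were left out. In MK2-/- BMDM it was 1, also without any single array, and rose to 2 with the culture as a replicate block and with the number of the culture as a fixed block across genotypes, an alternative chosen after seeing the data. In MK2/3-/- BMDM it was 3 and fell to 1 with the methods' t-test, was 4 with the culture as a replicate block, normexp background correction, only genes well above background in a whole group, a trend and robust variance or the number of the culture as a block, and was 2 to 4 when single arrays were left out. No called member changed direction under any alternative. Of 918 values of single members for LPS against medium under the alternatives, 882 stayed on the same side of the threshold, 20 lost and 16 gained a call. The cause of these changes was not tested. Deviations of same-numbered cultures of MK2-/- and MK2/3-/- BMDM correlated with a lowest r of 0.21 after LPS and 0.13 in medium. Between wt and MK2-/- BMDM the lowest r was -0.03 after LPS and 0.06 in medium. Between wt and MK2/3-/- BMDM it was 0.01 after LPS and -0.11 in medium. The number as a block changed no call of a member between genotypes. Low signals limit the second probe of Serping1 and, in medium, Serpina3f.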
